A study of Homo sapiens with 12 samples.

Results

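The joint effect of TNFα and the Mediator kinase inhibitor Senexin B on transcript levels was followed in HEK293 cells, a human embryonic kidney line, with bulk RNA sequencing, by setting the 3 libraries of cells that received both agents against the 3 libraries of vehicle-treated cells. These are 6 of the 12 libraries of the series. Cells of the TNF_SnxB group received 1 µM Senexin B for 1 h and then 10 ng/mL TNFα for 2 h. TNF cells were kept in 0.1% DMSO for 1 h before 10 ng/mL TNFα was added for 2 h, SnxB cells received 1 µM Senexin B for 3 h, and DMSO cells, the vehicle group, received 0.1% DMSO for 3 h. Each of the 4 groups held 3 libraries, labelled as biological replicates of the same cell line. All 14822 genes that passed a low-count filter, of 56634 in the table, were members of the comparison. The question it addresses is the net outcome of both treatments: in which genes they opposed each other, in which they added, and which genes followed only one of them.

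TNFα binds its receptor on the cell surface and activates the IKK complex, which releases NF-kB from its inhibitor IκBα so that it enters the nucleus and starts transcription of chemokines, of its own inhibitors and of survival genes. It also activates the JNK and p38 kinases, which act on AP-1 and ATF factors. CDK8 and CDK19 are the kinases of a detachable module of Mediator, the complex that connects transcription factors with RNA polymerase II, and Senexin B inhibits both. The module can help or restrain transcription, and it has been tied to NF-kB, serum response and other inducible genes.

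The TNF_SnxB libraries held 9121184, 12441702 and 13818638 counts and the DMSO libraries 11654512, 9967328 and 11714431, while TNF library 2, with 50943310 counts, exceeded the median depth of the others 4.87 times. TNF_SnxB library 1 stood apart from its replicates: its counts differed from those of libraries 2 and 3 with a chi-square over its degrees of freedom of 5.631 and 5.39, against 1.21 between libraries 2 and 3 and 1.321 to 1.58 between DMSO libraries. The difference followed transcript GC content. In libraries 2 and 3 the median gene of the lowest GC decile lay 0.22 and 0.20 above the DMSO mean on the log2 scale, and that of the highest decile lay at -0.25 in each, whereas the medians of library 1 lay between -0.010 and 0.012 over all 10 deciles. The net log2 change of TNF_SnxB against DMSO was therefore lower in genes of higher GC content (Spearman correlation -0.57 over 13438 genes, which share their libraries). That correlation was 0.0037 once GC content and length were corrected for and 0.012 with library 1 alone. For TNF against DMSO it was 0.275 with all libraries, -0.0054 corrected and 0.27 in the fit with TNF_SnxB library 1 alone. For the departure of the net change from the sum of both single changes it was -0.68, -0.027 and -0.22 in the same order. For SnxB against DMSO it was 0.055 with all libraries. Each result was for this reason read in 3 fits: all 12 libraries, all 12 corrected for GC content and transcript length, and TNF_SnxB library 1 alone with the 9 libraries of the other groups, in which the lone library is assumed to vary as those groups do. Markers of the line (KRT8, KRT18, VIM, NEFL, NEFM and PAX2) were all detected and summed to 739 to 753 CPM (a count divided by the TMM-scaled library size) in TNF_SnxB and 779 to 804 CPM in DMSO, with PAX2 low at 0.329 to 0.482 CPM in TNF_SnxB and 0.427 to 1.30 CPM in DMSO. The 5 leukocyte markers summed to 0.241 to 0.767 CPM in TNF_SnxB and 0.341 to 0.702 CPM in DMSO, with CD3E at 0 counts in these libraries. The 4 endothelial markers summed to 0.289 to 0.804 CPM in TNF_SnxB and 0.301 to 0.598 CPM in DMSO, with CDH5 at 0 counts, and of the 5 fibroblast markers, 14.8 to 16.2 CPM in TNF_SnxB and 15.2 to 16.7 CPM in DMSO, nearly all was COL1A1 and DCN was at 0 counts. Of the line's own markers NEFL lay at 39.1 to 42.3 CPM in TNF_SnxB and 55.3 to 58.3 CPM in DMSO, and its part in the results was not tested.

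**Figure D1:**
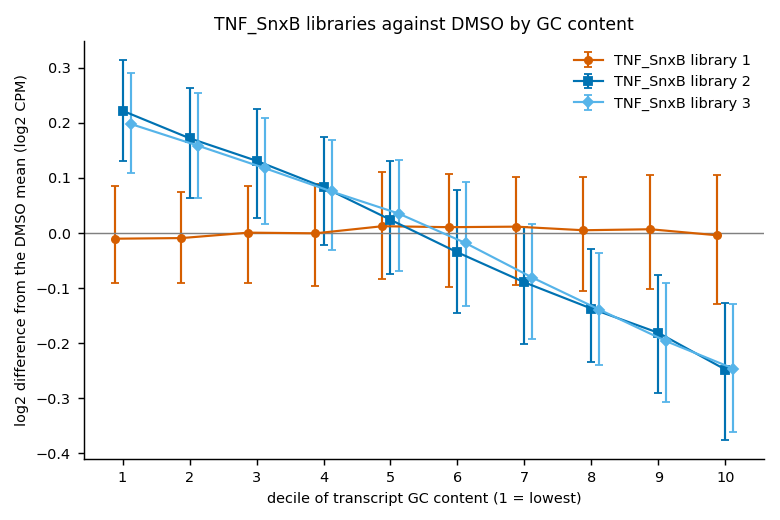
Median log2 difference of each TNF_SnxB library from the DMSO mean (y axis, log2 CPM) by decile of the GC content of transcripts (x axis, decile 1 the lowest), with bars from the lower to the upper quartile of the genes of a decile. The medians of libraries 2 and 3 start at 0.22 and 0.20 and end at -0.25 in the highest decile, while those of library 1 stay between -0.010 and 0.012.

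In all libraries, 1365 genes were higher (9.21% of those tested) and 1364 lower (9.2%) in TNF_SnxB than in DMSO (edgeR quasi-likelihood test, adjusted p under 0.05). The count of 2729 (18.4%) was 1962 after the correction, 688 with TNF_SnxB library 1 alone and 5634 with libraries 2 and 3 without library 1. TNF_SnxB and DMSO libraries did not overlap in 3687 genes (24.9%). Called in the same direction in all 3 fits were 490 genes (3.31%), 246 higher (1.66%) and 244 lower (1.65%), and the members named as higher or lower below are among them unless stated. In bulk RNA, fewer cells that express a gene and less of its RNA per cell cannot be told apart. TNF against DMSO had 300 calls (2.02%), 212 higher (1.43%) and 88 lower (0.594%). SnxB against DMSO had 301 calls (2.03%), 51 higher (0.344%) and 250 lower (1.69%), and all 3 comparisons share the DMSO libraries. After the correction there were 566 calls for TNF and 656 for SnxB. One spread is estimated over all 12 libraries, so the single-agent counts depend on the TNF_SnxB libraries too. Its biological coefficient of variation was 3.49% with all libraries and 1.88% after the correction.

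The largest rises were chemokines and feedback regulators of NF-kB. NFKBIA (chr14:35401511-35404749, minus strand, GRCh38), the gene of IκBα, had 188, 168 and 165 CPM in TNF_SnxB, against 25.2, 27.7 and 28.97 CPM in DMSO. Every TNF_SnxB library thus lay above every DMSO library, and the rise was 6.34-fold (log2 2.67, SE 0.0645, adjusted p = 2.58e-23). TNFAIP3, which encodes the ubiquitin-editing NF-kB inhibitor A20, had 37.5, 34.3 and 37.3 CPM in TNF_SnxB, against 3.12, 3.85 and 4.14 CPM in DMSO. RELB, an NF-kB subunit, had 48.8, 40.04 and 37.2 CPM in TNF_SnxB, against 3.65, 5.67 and 3.62 CPM in DMSO. Both were raised by a similar amount in the net, by 3.29 (SE 0.135) and 3.28 (SE 0.157) on the log2 scale. The neutrophil chemokine gene CXCL1 had 2.41, 3.43 and 2.93 CPM in TNF_SnxB, against 0.521, 0.101 and 0.172 CPM in DMSO. CXCL8, which encodes interleukin 8, had 1.21, 1.196 and 1.43 CPM in TNF_SnxB, against 0.174, 0 and 0.172 CPM in DMSO. Both chemokine genes were above all DMSO libraries in every TNF_SnxB library, and near the floor of 3 counts per library in DMSO, where that floor is 0.259 to 0.304 CPM, and such floors cover counting error only. Their rises were 3.40 (SE 0.469) and 3.32 (SE 0.786), those of the related chemokine genes CXCL3 and CXCL6 were 3.31 and 2.59, and TNFRSF9, a TNF receptor family member of activated lymphocytes, rose by 2.62. CXCL10 and CCL20, chemokine genes for T cells and dendritic cells, had 44 and 20 counts over the TNF_SnxB libraries and 0 counts in DMSO, which makes them at least 13.8-fold and at least 6.28-fold higher if 3 counts are set as the floor of the whole DMSO group.

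The largest falls included MYC, ARC and both HSP70 genes. MYC, which encodes a growth-promoting transcription factor, had 25.02, 21.2 and 19.5 CPM in TNF_SnxB, against 87.9, 95.6 and 89.7 CPM in DMSO. ARC, an activity-regulated immediate-early gene, had 2.74, 2.23 and 2.86 CPM in TNF_SnxB, against 10.6, 12.8 and 11.6 CPM in DMSO. In both genes all TNF_SnxB libraries lay below all DMSO libraries, and the log2 values fell by 2.07 (SE 0.0709, adjusted p = 8.72e-20) and 2.15 (SE 0.159, adjusted p = 3.64e-12). TXNIP, which encodes an inhibitor of thioredoxin that limits glucose uptake, had 9.88, 12.2 and 10.2 CPM in TNF_SnxB, against 30.6, 34.1 and 33.5 CPM in DMSO. ADAMTS1, which encodes a secreted protease, had 109, 94.4 and 98.0 CPM in TNF_SnxB, against 292, 277 and 289 CPM in DMSO. They fell by 1.595 and 1.52. HSPA1A and HSPA1B encode HSP70 chaperones from near-identical sequences, so the split of reads between them is uncertain, and they fell by 1.35 and 1.42. Further large falls were those of FAM84A (-1.43), the clock output gene DBP (-1.38) and the Wnt ligand gene WNT9A (-1.38), the last at 1.31 ± 0.116 CPM in TNF_SnxB and 3.46 ± 0.531 CPM in DMSO (SD, n = 3 each).

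Members were then sorted by their single-agent changes. A gene was taken as opposing where TNF against DMSO and SnxB against DMSO were both called with opposite signs, and as adding where both were called with the same sign. It was TNF-led where only TNF against DMSO was called, TNF_SnxB against DMSO was called in the same direction and TNF also differed from SnxB, which 785 genes did (5.3%, with 3.49% higher and 1.81% lower in TNF), and SnxB-led by the same rule for Senexin B. There were 25 opposing (0.169% of tested genes), 26 adding (0.175%), 137 TNF-led (0.924%) and 130 SnxB-led genes (0.877%). After the correction these classes held 49, 59, 214 and 296 genes. In a led gene the missing call of the other agent does not show that this agent had no effect. The single-agent changes chose the members, so they are given below as a description. For the TNF-led and SnxB-led genes the net call was part of the choice too, so their net direction is also a description. At the threshold of the TNF calls, ZNF503 lay just inside (log2 change -0.25, adjusted p = 0.0497) and HNRNPA2B1 just outside (-0.098, 0.052), and at that of the SnxB calls CHCHD7 lay just inside (-0.28, 0.0496) and KMT2D just outside (0.18, 0.0506).

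**Figure D2:**
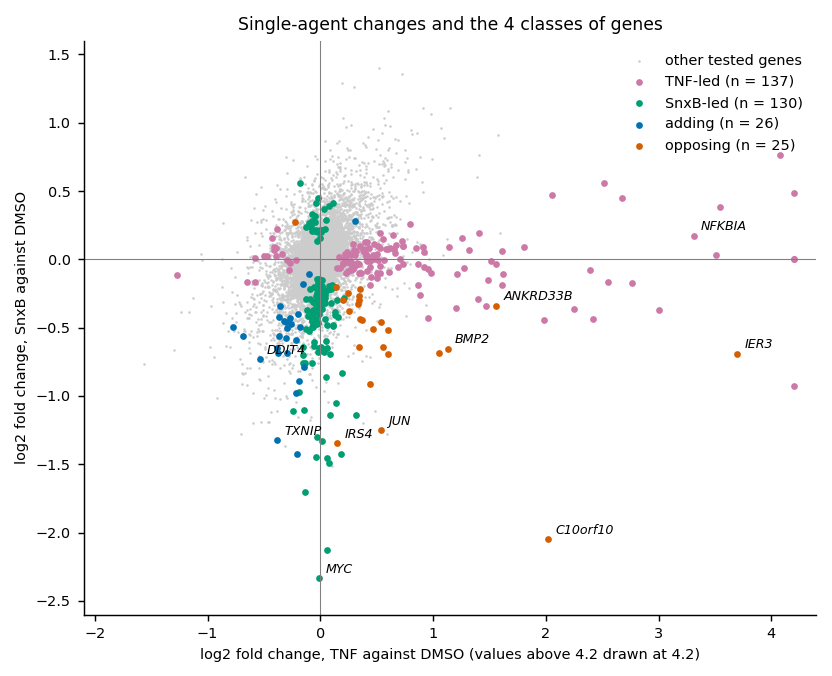
Log2 fold change of TNF against DMSO (x axis, values above 4.2 drawn at 4.2) and of SnxB against DMSO (y axis) for each tested gene, with the 4 classes in color. The 25 opposing genes lie below 0 on the y axis and right of 0 on the x axis, except FZD1 on the upper left, and the 26 adding genes lie at the lower left, except ALAS1 at the upper right.

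In 24 of the 25 opposing genes TNFα alone raised the transcript and Senexin B alone lowered it, and FZD1, a Wnt receptor gene, was the reverse. All 25 were opposing in the corrected fit as well. The rule does not use the TNF_SnxB libraries, so the fit with TNF_SnxB library 1 alone compares the same libraries here and is no further check. Their median log2 change was -0.038 in TNF_SnxB, 0.37 in TNF and -0.46 in SnxB, and in 17 of them the net change was smaller in size than either single change. The median net change over all tested genes was -0.0045. The net outcome fell into 3 kinds: 5 genes were higher than DMSO in all 3 fits, 3 were lower in all 3 fits, and 8 were called in none of them. In the other 9 the call depended on the fit.

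Of the 5 that stayed above DMSO, IER3 (chr6:30743199-30744554, minus strand), an early response gene tied to cell survival under stress, had 57.0, 52.2 and 53.5 CPM in TNF_SnxB, 142, 135 and 139 CPM in TNF, 6.15, 7.20 and 6.24 CPM in SnxB and 12.1, 8.60 and 10.9 CPM in DMSO. All TNF_SnxB libraries lay between the TNF and the DMSO libraries, with a net rise of 2.35 (95% interval 2.16 to 2.54), against 3.70 in TNF and -0.69 in SnxB. BMP2, which encodes a bone morphogenetic protein, had 37.5, 35.7 and 37.5 CPM in TNF_SnxB, 55.4, 58.4 and 57.3 CPM in TNF, 17.8, 14.7 and 17.7 CPM in SnxB and 27.7, 26.4 and 24.5 CPM in DMSO. GADD45B, which encodes a stress-response scaffold of MAP kinase signaling, had 28.4, 24.2 and 24.4 CPM in TNF_SnxB, 41.9, 40.5 and 40.5 CPM in TNF, 10.7, 11.9 and 13.96 CPM in SnxB and 21.1, 21.4 and 16.9 CPM in DMSO. In these genes too the TNF_SnxB libraries stood below the TNF and above the DMSO libraries without overlap, with net rises of 0.49 (0.35 to 0.64) and 0.37 (0.19 to 0.55). ANKRD33B, an ankyrin repeat gene, and RAB9A, a small GTPase of endosome-to-Golgi transport, kept nearly the level of the TNF cells. Their net rises were 1.45 and 0.33 in TNF_SnxB, against 1.56 and 0.35 in TNF, and the differences of TNF_SnxB from TNF were -0.11 (95% interval -0.23 to 0.0062) and -0.018 (-0.14 to 0.11), neither of them called.

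The 3 opposing genes that ended below DMSO were JUN, IRS4 and DUSP1. JUN (chr1:58780788-58784327, minus strand), which encodes an AP-1 subunit, had 139, 128 and 122 CPM in TNF_SnxB, 417, 392 and 396 CPM in TNF, 114, 120.0 and 114 CPM in SnxB and 279.6, 287 and 263 CPM in DMSO. TNFα alone thus raised JUN above all DMSO libraries, and with both agents it lay below all of them and above the SnxB libraries without overlap, by 0.16 (95% interval 0.056 to 0.26, adjusted p = 0.0346). The net log2 change of JUN was -1.09 (95% interval -1.19 to -0.998, adjusted p = 4.91e-17). IRS4, which encodes an insulin receptor substrate abundant in this line, had 176, 169 and 175 CPM in TNF_SnxB, 446, 449 and 452 CPM in TNF, 160.2, 157 and 161 CPM in SnxB and 406, 402 and 406 CPM in DMSO. DUSP1, which encodes a phosphatase that switches off MAP kinases, had 34.0, 30.2 and 27.2 CPM in TNF_SnxB, 57.6, 50.2 and 54.1 CPM in TNF, 25.5, 27.3 and 27.5 CPM in SnxB and 43.4, 41.8 and 40.4 CPM in DMSO. Both were highest in TNF and below DMSO in TNF_SnxB, with net changes of -1.23 (-1.30 to -1.15) and -0.48 (-0.63 to -0.32). The change of DUSP1 was -0.30 (adjusted p = 0.048) with TNF_SnxB library 1 alone.

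In 8 opposing genes the 2 agents left no net call in any of the 3 fits: NRARP, SPEN, BTG2, IER5, TAF4B, TGIF2, ZFP36L2 and FZD1. NRARP, which encodes a feedback inhibitor of Notch, had 39.6, 37.5 and 34.9 CPM in TNF_SnxB, 60.8, 59.9 and 59.3 CPM in TNF, 28.1, 23.4 and 27.2 CPM in SnxB and 38.0, 46.1 and 38.9 CPM in DMSO. TNF_SnxB and DMSO libraries overlapped, and the net change was -0.14 (95% interval -0.29 to 0.013). For BTG2, an antiproliferative gene, the net was 0.11 (-0.017 to 0.24), against 0.37 in TNF and -0.45 in SnxB. The intervals were narrow for TAF4B, which encodes a TFIID subunit, at 0.0057 (-0.11 to 0.12), for TGIF2, a repressor of TGF-beta signaling, at 0.05 (-0.058 to 0.16), for IER5, an immediate-early gene, at -0.017 (-0.13 to 0.10), and for SPEN, a transcriptional corepressor, at -0.055 (-0.12 to 0.0091). They span net changes smaller than the single changes of 0.34, 0.35, 0.25 and 0.14 in TNF. ZFP36L2, an mRNA decay factor, was at -0.14 (-0.26 to -0.02) and FZD1 at -0.038 (-0.16 to 0.084). A missing call does not show that the net change was nil.

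The other 9 were called in some of the fits and not in others. C10orf10, a gene also known as DEPP1, changed strongly under each agent alone, by 2.02 in TNF and -2.05 in SnxB, and had 6.48, 8.30 and 7.58 CPM in TNF_SnxB, 18.2, 19.3 and 18.5 CPM in TNF, 0.912, 0.947 and 1.48 CPM in SnxB and 4.95, 3.75 and 5.09 CPM in DMSO. Its TNF_SnxB libraries lay between those of TNF and DMSO, at a net of 0.70 (adjusted p = 0.00108), and the call was lost with TNF_SnxB library 1 alone (0.48, adjusted p = 0.277). No GC content was available for this gene, which was tested uncorrected in the second fit. The AP-1 subunit gene JUND had 83.9, 63.3 and 67.6 CPM in TNF_SnxB, 139, 136 and 137 CPM in TNF, 65.6, 60.2 and 64.1 CPM in SnxB and 92.5, 95.5 and 83.4 CPM in DMSO. Its TNF_SnxB library 1 lay inside the range of the DMSO libraries and libraries 2 and 3 below it, and its GC content is 69.7%. The net change was -0.35 (adjusted p = 0.000698) with all libraries. In the corrected fit it was -0.12 (adjusted p = 0.0473), and with library 1 alone -0.11 (adjusted p = 0.468). ATF3, which encodes a stress-induced bZIP factor, had 43.0, 37.1 and 42.0 CPM in TNF_SnxB, 75.1, 73.7 and 72.3 CPM in TNF, 31.2, 28.7 and 30.3 CPM in SnxB and 52.3, 42.9 and 50.1 CPM in DMSO. TNF_SnxB and DMSO overlapped by their highest and lowest libraries, and the net change was -0.26 with all libraries and -0.18 (adjusted p = 0.3) with library 1 alone. For the pro-apoptotic BH3 gene BBC3 the net of -0.31 became -0.075 (adjusted p = 0.656) after the correction. The Krüppel-like factor genes KLF10 and KLF9 stood higher, at 0.31 and 0.26, but were not called with library 1 alone (0.25 and 0.19). Values below DMSO that were not called with library 1 alone were those of RGS16, a regulator of G protein signaling (-0.24 with all libraries and -0.12 with library 1), FJX1 (-0.37 and -0.082) and the carbonic anhydrase gene CA2 (-0.16 and -0.14), the last called in the corrected fit alone (-0.196).

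**Figure D3:**
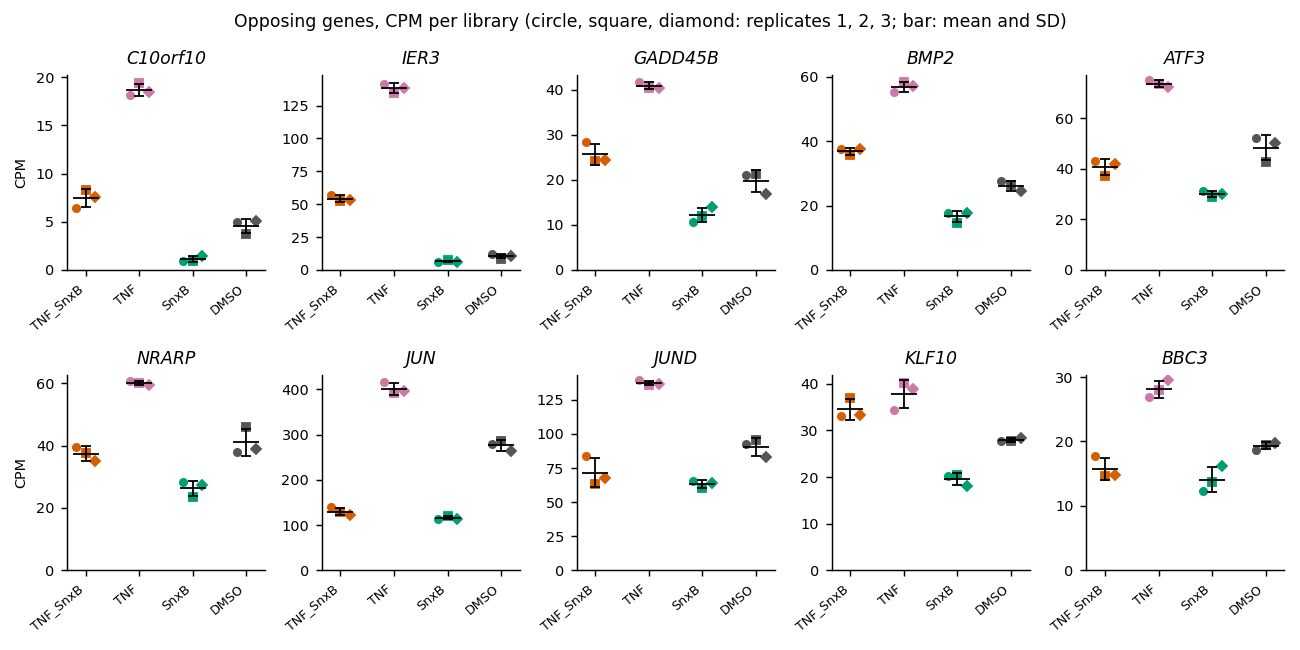
CPM (y axis, from 0) of 10 opposing genes in the 4 groups (x axis), with circle, square and diamond for libraries 1, 2 and 3 and bars for the mean and SD (n = 3). TNF_SnxB lies between TNF and DMSO for C10orf10, IER3, GADD45B and BMP2, and below DMSO and above SnxB for JUN.

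The promoters of opposing genes were searched for short motifs of inducible genes in windows of 250 bases before to 50 after the start site (RefSeq, GRCh38.p14; both strands). The motifs were the NF-kB consensus, AP-1 (TGANTCA), the core of the cyclic AMP response element (CRE, TGACGTC), the CArG box of serum response factor and the E-box (CACGTG). Windows were found for 20 of the 25 opposing genes. Of these, 4 (20%) held the NF-kB consensus, against 13.3% of 10982 windows of tested genes, and 3 (15%) held the CRE core, against 5.72%. Of the 79 windows found for the 96 TNF-led genes that rose in all 3 fits, 36 (45.6%) held the NF-kB consensus, and of the 61 found for the 80 SnxB-led genes that fell in all 3 fits, 6 (9.84%) did. The AP-1 motif was in 5%, 8.86% and 6.56% of these 3 sets and in 4.27% of tested genes, the E-box in 25%, 3.8% and 4.92% and in 10.3% of tested genes, and the CArG box in 1.03% of tested genes. A match is a description of the sequence and not a binding site.
GADD45B, DUSP1 and JUND, opposing genes with different net outcomes, and the TNF-led NFKBIA are shown by the bases before the start site, 5′ to 3′ on the strand of the gene, because they differ in which of these motifs they hold. Capitals mark every match to the 5 motifs.
GADD45B (chr19:2475877-2476126, plus strand): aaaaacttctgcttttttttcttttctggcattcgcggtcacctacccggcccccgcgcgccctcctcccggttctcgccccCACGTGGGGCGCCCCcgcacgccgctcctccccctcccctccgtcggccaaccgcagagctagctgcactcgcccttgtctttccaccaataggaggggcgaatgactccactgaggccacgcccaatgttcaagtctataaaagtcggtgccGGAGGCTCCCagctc
DUSP1 (chr5:172771196-172771445, minus strand): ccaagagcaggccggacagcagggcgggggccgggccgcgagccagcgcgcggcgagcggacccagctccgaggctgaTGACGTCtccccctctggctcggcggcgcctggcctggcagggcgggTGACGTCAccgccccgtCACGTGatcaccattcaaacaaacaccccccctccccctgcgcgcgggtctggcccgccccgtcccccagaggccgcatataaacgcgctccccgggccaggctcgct
JUND (chr19:18281623-18281872, minus strand): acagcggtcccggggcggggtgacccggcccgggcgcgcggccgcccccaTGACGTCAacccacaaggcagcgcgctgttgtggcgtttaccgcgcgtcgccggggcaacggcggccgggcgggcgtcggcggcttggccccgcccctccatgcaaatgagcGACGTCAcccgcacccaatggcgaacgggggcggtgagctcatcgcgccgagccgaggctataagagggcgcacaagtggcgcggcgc
NFKBIA (chr14:35404750-35404999, minus strand): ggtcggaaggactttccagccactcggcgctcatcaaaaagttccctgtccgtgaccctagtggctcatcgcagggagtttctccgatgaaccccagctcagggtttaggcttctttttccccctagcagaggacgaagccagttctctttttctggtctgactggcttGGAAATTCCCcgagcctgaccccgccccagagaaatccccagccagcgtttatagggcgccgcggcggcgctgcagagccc
In GADD45B, which ended above DMSO, the capitals are an E-box that runs on into a first match to the NF-kB consensus and a second match on the other strand near the start site. In DUSP1, which ended below DMSO, and in JUND, whose call depended on the fit, they are CRE cores, which overlap on both strands where the element is a full palindrome, and in DUSP1 also an E-box. NFKBIA holds a single match to the NF-kB consensus.

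The 26 adding genes were lower under each agent alone in 25 cases, and ALAS1, which encodes the first enzyme of heme synthesis, was higher. Their median log2 change was -0.80 in TNF_SnxB, -0.30 in TNF and -0.53 in SnxB, and in 23 of them the net change was larger in size than either single change. In 25 genes the net change was called in all 3 fits. The exception was TBCA, a tubulin folding cofactor, at -0.11 (adjusted p = 0.0535) with all libraries, -0.30 after the correction and -0.19 with library 1 alone. A net change beyond both single agents, with TNF_SnxB also called below TNF (4029 tested genes were called in this comparison, 27.2%, and 13.9% lower) and below SnxB (2106 and 14.2%, with 6.83% lower), was found in 12: DBP, DDIT4, BMF, ID2, ID4, CTGF, CITED2, HEY1, PIK3R3, IGFBP5, PCDH9 and EFNB2. Of these 12, 9 met the same rule after the correction and 5 with TNF_SnxB library 1 alone.

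DDIT4, which encodes an inhibitor of the growth kinase complex mTORC1, had 38.0, 29.2 and 31.2 CPM in TNF_SnxB, 51.4, 51.8 and 51.5 CPM in TNF, 44.1, 45.8 and 45.5 CPM in SnxB and 82.5, 70.1 and 71.99 CPM in DMSO. The 4 groups did not overlap, and the steps to DMSO were -1.21 (95% interval -1.36 to -1.06) in TNF_SnxB, -0.54 in TNF and -0.73 in SnxB. With all libraries TNF_SnxB lay below TNF by 0.67 (adjusted p = 9.66e-08) and below SnxB by 0.48 (adjusted p = 0.000225). The net change of DDIT4 was -1.10 after the correction and -0.98 with TNF_SnxB library 1 alone. BMF, a pro-apoptotic BH3 gene, had 10.3, 8.53 and 7.08 CPM in TNF_SnxB, 10.3, 10.4 and 12.2 CPM in TNF, 14.5, 12.8 and 12.3 CPM in SnxB and 16.6, 18.8 and 20.2 CPM in DMSO. DBP, a transcription factor gene of clock output, had 3.95, 3.35 and 3.22 CPM in TNF_SnxB, 5.98, 5.54 and 5.54 CPM in TNF, 5.24, 5.21 and 7.93 CPM in SnxB and 8.77, 9.62 and 8.79 CPM in DMSO. In both genes the TNF_SnxB libraries were below the DMSO libraries, with net falls of 1.13 (SE 0.120) and 1.38 (SE 0.160). In BMF the highest TNF_SnxB library, library 1, equalled the lowest TNF library to 3 digits. With TNF_SnxB library 1 alone the net changes of BMF, DBP, ID2 and CTGF were -0.84, -1.19, -0.998 and -1.08. ID2, which encodes an inhibitor of basic helix-loop-helix factors, had 43.5, 49.5 and 49.7 CPM in TNF_SnxB, 67.2, 66.5 and 66.1 CPM in TNF, 56.6, 55.6 and 53.7 CPM in SnxB and 83.8, 88.0 and 88.8 CPM in DMSO. CTGF, which encodes a secreted matrix protein of TGF-beta and YAP responses, had 8.34, 7.26 and 8.79 CPM in TNF_SnxB, 16.3, 12.0 and 15.0 CPM in TNF, 10.8, 11.7 and 10.4 CPM in SnxB and 18.1, 17.1 and 17.7 CPM in DMSO. CITED2, which encodes a protein that binds the coactivators CBP and p300, had 20.6, 17.5 and 20.2 CPM in TNF_SnxB, 34.3, 32.1 and 30.7 CPM in TNF, 31.6, 31.8 and 34.4 CPM in SnxB and 40.7, 39.98 and 42.9 CPM in DMSO. All 3 genes were lowest in TNF_SnxB, with net falls of 0.86, 1.12 and 1.09, and CITED2 fell by more than the sum of its single changes of -0.35 in TNF and -0.34 in SnxB (interaction -0.40, adjusted p = 0.0377, and adjusted p = 0.634 with TNF_SnxB library 1 alone).

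The other adding genes differed in how far each agent carried the fall. In TXNIP, with 9.88, 12.2 and 10.2 CPM in TNF_SnxB, 23.7, 25.5 and 25.3 CPM in TNF, 12.2, 13.1 and 13.9 CPM in SnxB and 30.6, 34.1 and 33.5 CPM in DMSO, most of the net fall was already present with Senexin B alone, and TNF_SnxB against SnxB was not called (-0.27, adjusted p = 0.0842). ADAMTS1, the GABA-B receptor auxiliary gene KCTD12 and INSIG1, a sterol sensor, were of the same kind, with net falls of 1.52, 1.07 and 0.78, against -1.43, -0.97 and -0.79 in SnxB. STC2, a secreted glycoprotein of the stress response, and TOB1, an antiproliferative gene, fell by 0.67 and 0.61 in the net and below TNF, but TNF_SnxB against SnxB was not called (-0.10 and -0.16). ALAS1 had 77.7, 76.0 and 78.6 CPM in TNF_SnxB, against 59.6, 56.3 and 58.6 CPM in DMSO. It rose by 0.41 (SE 0.0520), without a call against TNF (0.11) or SnxB (0.13).

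**Figure D4:**
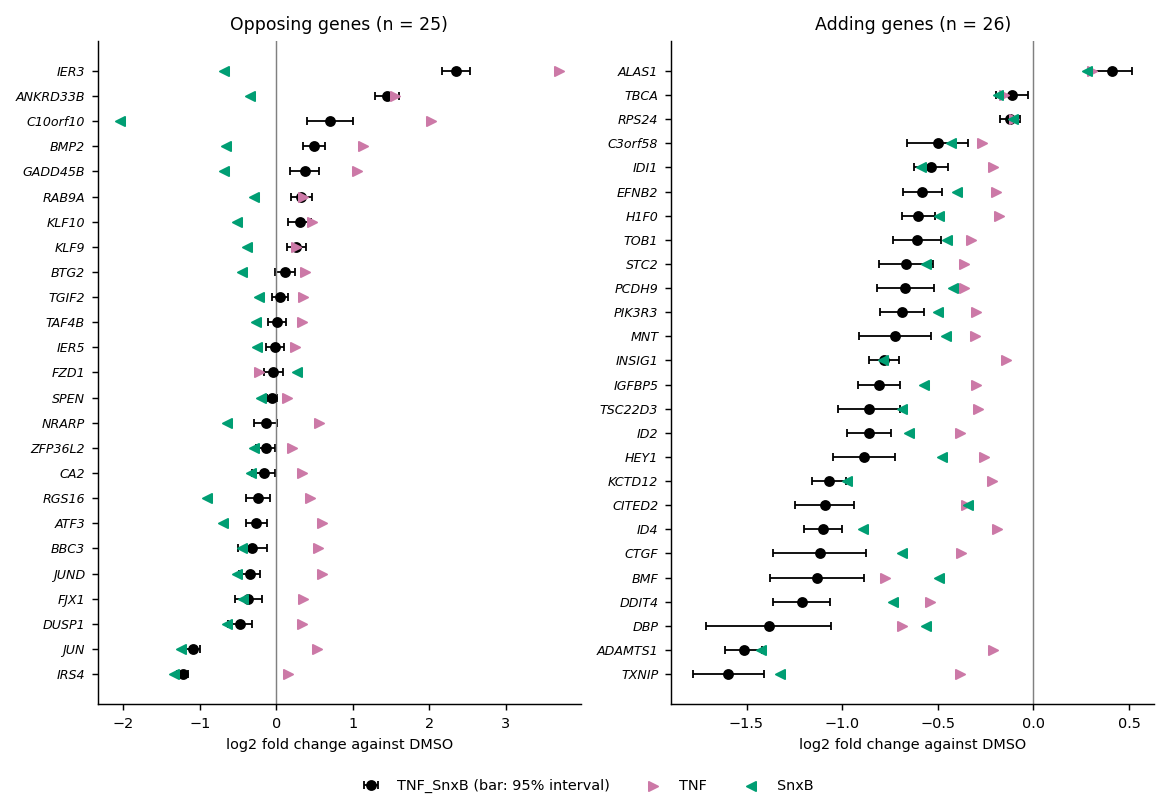
Log2 fold change against DMSO (x axis) of the 25 opposing and the 26 adding genes, with the net change of TNF_SnxB as black points with 95% intervals, TNF as right-pointing and SnxB as left-pointing triangles. Net changes of opposing genes lie mostly between the 2 triangles, with a median of -0.038, and those of adding genes mostly beyond both, with a median of -0.80.

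Of the 137 TNF-led genes, 120 were higher and 17 lower, and the net change was called in all 3 fits in 96 and 7. The median change of those 96 was 0.71 in TNF_SnxB and 0.65 in TNF, and their median difference of TNF_SnxB from TNF was -0.034. Genes whose rise was lost with both agents were left out by the rule, so these medians do not cover them. The net rise was smaller than that in TNF in 54 of the 96. In 7 of the 96 TNF_SnxB was nevertheless below TNF in all 3 fits: the chemokine genes CXCL1, CXCL8 and CXCL10, NFKBIA, SDC4, JUNB and CD83. With all libraries it was called below TNF in 23 of the 120, beside 13.9% of all tested genes called lower in this comparison. SDC4, which encodes a cell surface proteoglycan, had 79.4, 88.6 and 86.6 CPM in TNF_SnxB, 151, 144 and 144 CPM in TNF, 22.4, 21.7 and 22.2 CPM in SnxB and 25.5, 24.6 and 24.3 CPM in DMSO. CD83, a surface protein of activated antigen-presenting cells, had 50.2, 55.8 and 53.6 CPM in TNF_SnxB, 70.9, 72.1 and 67.2 CPM in TNF, 10.7, 14.4 and 12.9 CPM in SnxB and 12.7, 12.6 and 15.0 CPM in DMSO. JUNB, an AP-1 subunit gene, had 46.4, 37.4 and 41.7 CPM in TNF_SnxB, 57.7, 57.4 and 57.3 CPM in TNF, 7.98, 8.24 and 7.51 CPM in SnxB and 10.2, 11.3 and 10.6 CPM in DMSO. The TNF_SnxB libraries of all 3 genes lay between the TNF and DMSO libraries, with differences of TNF_SnxB from TNF of -0.78 (SE 0.0463), -0.40 (SE 0.0597) and -0.47 (SE 0.0602). For CXCL1, CXCL8 and NFKBIA these differences were -2.32, -1.78 and -0.65. CXCL10 had 44 counts over the TNF_SnxB libraries and 178 over the TNF libraries, which are deeper in total. Scaled to depth, with 3 counts as the floor of the DMSO group, it was at least 13.8-fold above DMSO in TNF_SnxB. In TNF it was at least 27.6-fold above DMSO.

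In 2 of the 96, TIFA and USP43, TNF_SnxB was above TNF in all 3 fits, and with all libraries it was above TNF in 11 of the 120 (13.3% of all tested genes were called higher in this comparison). USP43, a deubiquitinase gene, rose by 1.56 in TNF_SnxB, against 1.26 in TNF. TIFA, which encodes an adaptor that links pattern recognition to TRAF6, had 78.0, 84.0 and 81.7 CPM in TNF_SnxB, 54.9, 56.1 and 56.2 CPM in TNF, 22.7, 23.8 and 20.6 CPM in SnxB and 25.8, 22.6 and 23.9 CPM in DMSO. It was highest in TNF_SnxB without overlap, 0.54 above TNF (adjusted p = 1.05e-08), while SnxB against DMSO was at -0.11 (adjusted p = 0.666). The 6 largest TNF-led falls called in all 3 fits were those of DACT1, a modulator of Wnt signaling (-0.69, SE 0.0952), RGS2, a regulator of G protein signaling (-0.61, SE 0.114), PTCH1, the Hedgehog receptor (-0.51, SE 0.0648), the LIM homeobox gene ISL1 (-0.47, SE 0.114), the receptor tyrosine kinase gene KIT (-0.47, SE 0.0831) and DLC1, a GTPase-activating protein (-0.37, SE 0.0748). PTCH1 had 31.9, 32.9 and 32.9 CPM in TNF_SnxB, against 47.0, 44.6 and 47.9 CPM in DMSO, without overlap. ISL1 was at -0.80 with TNF_SnxB library 1 alone.

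Of the 130 SnxB-led genes, 105 were lower and 25 higher, and the net change was called in all 3 fits in 80 and 19. The median change of those 80 was -0.47 in TNF_SnxB and -0.44 in SnxB, and their median difference of TNF_SnxB from SnxB was 0.0093. Here too genes whose fall was lost with both agents were left out by the rule. The net fall was smaller than that in SnxB in 44 of the 80. MYC had 25.02, 21.2 and 19.5 CPM in TNF_SnxB, 91.7, 87.9 and 92.0 CPM in TNF and 17.8, 17.4 and 18.9 CPM in SnxB. It was thus low in both groups with the inhibitor, and TNF_SnxB against SnxB was not called (0.26, adjusted p = 0.0528). ARC and FAM84A were at 2.61 ± 0.333 and 6.07 ± 0.406 CPM in TNF_SnxB, and at 11.6 ± 1.08 and 16.5 ± 0.878 CPM in DMSO (SD, n = 3 each). CXCR4, a chemokine receptor gene, had 4.06, 3.75 and 3.65 CPM in TNF_SnxB, 9.41, 7.60 and 7.57 CPM in TNF, 2.17, 2.75 and 3.07 CPM in SnxB and 8.85, 7.90 and 9.40 CPM in DMSO. Its net fall was 1.204 (SE 0.148). TNF_SnxB was above SnxB in all 3 fits in 3 of the 80, HSPA1A, PMAIP1 and DDX3X. With all libraries it was called above SnxB in 9 of the 105, beside 7.38% of all tested genes called higher in this comparison. PMAIP1, a pro-apoptotic BH3 gene of the p53 response, had 223, 267 and 269.8 CPM in TNF_SnxB, 417, 413 and 415 CPM in TNF, 177, 182 and 185 CPM in SnxB and 380.4, 359.9 and 388 CPM in DMSO. Its TNF_SnxB libraries lay above the SnxB and below the DMSO libraries, with a difference of 0.49 (SE 0.0509) from SnxB, and for HSPA1A that difference was 0.14 (SE 0.0451).

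The 6 largest SnxB-led rises called in all 3 fits included genes of cell division. AURKA, a mitotic kinase gene, had 181, 186 and 190.4 CPM in TNF_SnxB, 138, 141 and 134 CPM in TNF, 169.9, 184 and 179.6 CPM in SnxB and 145, 141 and 142 CPM in DMSO. NDC80, a kinetochore gene, had 123, 138 and 134 CPM in TNF_SnxB, 85.9, 93.6 and 92.1 CPM in TNF, 118, 125 and 119.8 CPM in SnxB and 95.5, 94.0 and 98.5 CPM in DMSO. In both genes the TNF_SnxB libraries were above all DMSO libraries and close to SnxB, with net rises of 0.38 (SE 0.0427) and 0.46 (SE 0.0497). DEPDC1, the spindle checkpoint kinase gene TTK, the spindle gene DLGAP5 and GTF2A1, a subunit gene of TFIIA, rose by 0.49, 0.38, 0.33 and 0.47. In these 4 genes, whose transcripts have a GC content of 34.7%, 40.8%, 38.4% and 35.4%, the values with TNF_SnxB library 1 alone were 0.25, 0.23, 0.16 and 0.35.

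The 490 genes called in all 3 fits were divided by their single calls with all libraries. They comprise 130 with a TNF call only, 131 with a SnxB call only and 25 with both in the same direction. The others are 8 with both in opposite directions and 196 with neither. The last 196, 107 higher and 89 lower, had median net changes of 0.31 and -0.35. Their single-agent changes were 0.11 and -0.09 at the median in TNF and 0.12 and -0.15 in SnxB. In 149 of the 196 at least one of these changes had an unadjusted p under 0.05 (edgeR quasi-likelihood test). Over all 14822 tested genes that held for 1545 in TNF and 1790 in SnxB, counted separately. In 81 neither single agent was called in the corrected fit or the fit with library 1 alone either. ID3, a relative of ID2, had 96.3, 87.6 and 89.4 CPM in TNF_SnxB, 123, 121 and 131 CPM in TNF, 118, 119.6 and 122 CPM in SnxB and 134, 136 and 127 CPM in DMSO. It was lowest in TNF_SnxB, which lay below TNF and below SnxB, at a net of -0.54 (SE 0.0490). MCL1, which encodes a survival protein of the BCL2 family, had 321, 337 and 349 CPM in TNF_SnxB, against 279, 278 and 276 CPM in DMSO. MCL1 thus rose by 0.28 (SE 0.0377), with 0.11 in TNF and 0.072 in SnxB. Both genes had single-agent calls in the corrected fit of the edgeR test. There MCL1 was at 0.13 in TNF (adjusted p = 0.00185). ID3 was at -0.12 in TNF (adjusted p = 0.0162) and at -0.13 in SnxB (adjusted p = 0.0332).

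A departure of the net change from the sum of both single changes on the log2 scale was called in 370 genes (2.5%, with 1.61% of tested genes below and 0.891% above the sum) with all libraries, in 46 after the correction and in 17 with TNF_SnxB library 1 alone. It was called in the same direction in all 3 fits in 4 genes (0.027%): TIFA, NFKBIA, SDC4 and JUN. TIFA lay above the sum by 0.65 (SE 0.0949, adjusted p = 0.00128). NFKBIA, SDC4 and JUN fell below the sum by 0.82 (SE 0.0906), 0.61 (SE 0.0903) and 0.38 (SE 0.0661). For the opposing genes BMP2 and GADD45B no departure was called, with values of 0.017 (95% interval -0.198 to 0.23) and 0.0091 (-0.26 to 0.28), and likewise for the adding genes DDIT4 at 0.059 (-0.15 to 0.27) and ID2 at 0.17 (0.015 to 0.33).

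Members were also read by gene lists of known pathways, some of which share genes. Counts below are of tested members called in all 3 fits, beside 1.66% higher and 1.65% lower over all tested genes, with the median log2 change of all tested members beside -0.0045 over all genes. Of 23 NF-kB regulators 12 rose (median 0.39), including NFKB2, the precursor of p52, by 1.59. Of 14 cytokines and chemokines 9 rose (median 1.8), among them CSF1, a macrophage growth factor, with 17.5, 16.03 and 17.0 CPM in TNF_SnxB, against 8.33, 9.41 and 9.23 CPM in DMSO. Of 28 other TNF target genes 14 rose (median 0.34). These lists hold genes picked in part because they are known to respond to TNFα. Of 17 interferon and STAT genes 2 rose (median 0.11, with 0.072 corrected and 0.049 with library 1 alone), the transcription factor genes IRF1 by 1.45 and IRF2 by 0.77.

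In the lists of other inducible genes falls were as many as rises or more. Of 12 AP-1 and ATF genes JUNB rose and JUN fell (median -0.17, with -0.075 corrected and -0.11 with library 1 alone). Of 29 other immediate-early genes 2 rose and 6 fell (median -0.14, with -0.059 corrected and -0.13 with library 1 alone), with EGR1, a serum-induced transcription factor gene, at 4.28, 5.66 and 5.36 CPM in TNF_SnxB, against 10.5, 10.6 and 10.6 CPM in DMSO. Falls made up 6 of the 12 genes responsive to TGF-beta and BMP (median -0.40), including ID4 by 1.10. HEY1 and HES1, transcriptional repressor genes downstream of Notch, were the 2 of 7 Notch target genes that fell (median -0.22, with -0.076 corrected and -0.085 with library 1 alone), by 0.89 and 0.54. Of 12 Wnt target genes 4 fell (median -0.16, with -0.092 corrected and -0.17 with library 1 alone), MYC, CCND1, which encodes cyclin D1, by 0.47, the receptor gene LGR5 by 0.39 and the ubiquitin ligase gene ZNRF3 by 0.34. Of 21 hypoxia and glycolysis genes 5 fell (median -0.11, with -0.13 corrected and -0.028 with library 1 alone), with NDRG1 down by 1.19, HK2, a hexokinase gene, by 0.57 and SLC2A1, the glucose transporter gene, by 0.40.

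Metabolic and stress lists were mixed. Of 22 genes of sterol and fatty acid synthesis 5 fell and 2 rose (median -0.045, with -0.043 corrected and -0.0053 with library 1 alone), and those with the smallest p, INSIG1, IDI1, HMGCS1 and SQLE, fell by 0.78, 0.54, 0.49 and 0.40. Of 16 ATF4 and unfolded protein response genes PPP1R15A, a phosphatase subunit gene, rose by 0.71 and ATF5 fell by 0.47 (median -0.047). HSPA1A, HSPA1B and HSPA8 were the 3 of 13 heat shock genes that fell (median -0.072, with -0.11 corrected and -0.097 with library 1 alone), HSPA8 by 0.37. Of 15 p53 target genes the death receptor gene FAS rose by 0.73 and PMAIP1 fell by 0.57 (median 0.051, with 0.022 corrected and 0.0059 with library 1 alone). Of 15 apoptosis regulators MCL1 rose, and BMF, PMAIP1 and BCL2L11, genes of pro-apoptotic BH3 proteins, fell (median -0.10, with 0.056 corrected and -0.11 with library 1 alone), BCL2L11 by 0.34. Of 15 clock genes 3 fell (median -0.067), DBP, BHLHE40 by 0.57 and NR1D1 by 0.82.

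In the cell cycle lists the calls were rises among mitotic genes and falls among genes of G1/S. Of 17 mitotic genes 7 rose (median 0.19), and of 20 G1/S and replication genes 3 fell (median -0.11, with -0.075 corrected and -0.065 with library 1 alone), RRM2, which encodes a ribonucleotide reductase subunit, by 0.31, CCND1, and CCND2 by 0.32. The mitotic median was 0.13 after the correction and with TNF_SnxB library 1 alone, and the motor gene CENPE and the topoisomerase gene TOP2A, at 0.43 and 0.23 with all libraries, were at 0.19 and 0.10 with library 1 alone. Of the 14 histone genes 4 fell (median -0.25, with -0.19 corrected and -0.17 with library 1 alone), H1F0 by 0.603, HIST1H2AC by 0.47, H2AFZ by 0.15 and H2AFX by 0.42, the last -0.23 with library 1 alone. Of 14 transcription kinase and 7SK genes HEXIM1, which encodes an inhibitor of the elongation kinase CDK9, fell by 0.48, and AFF4 and CCNT1, subunit genes of the elongation machinery, rose by 0.29 and 0.25 (list median 0.11, with 0.078 corrected and 0.068 with library 1 alone), with 0.18 and 0.15 for these genes after the correction. Of the 7 genes of the Mediator kinase module, the target of Senexin B, MED13 was the one called in all 3 fits (median 0.27, with 0.16 corrected and 0.091 with library 1 alone), at 0.30 with all libraries, 0.16 after the correction and 0.19 with library 1 alone. CDK8 had 37.1, 44.1 and 38.5 CPM in TNF_SnxB, against 37.7, 39.0 and 40.4 CPM in DMSO. CDK8 at 0.038 (95% interval -0.10 to 0.18) and MED12 at 0.015 (-0.088 to 0.12) were not called, and CCNC and CDK19, at 0.29 and 0.27, were at 0.051 and 0.038 with library 1 alone and not called there.

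**Figure D5:**
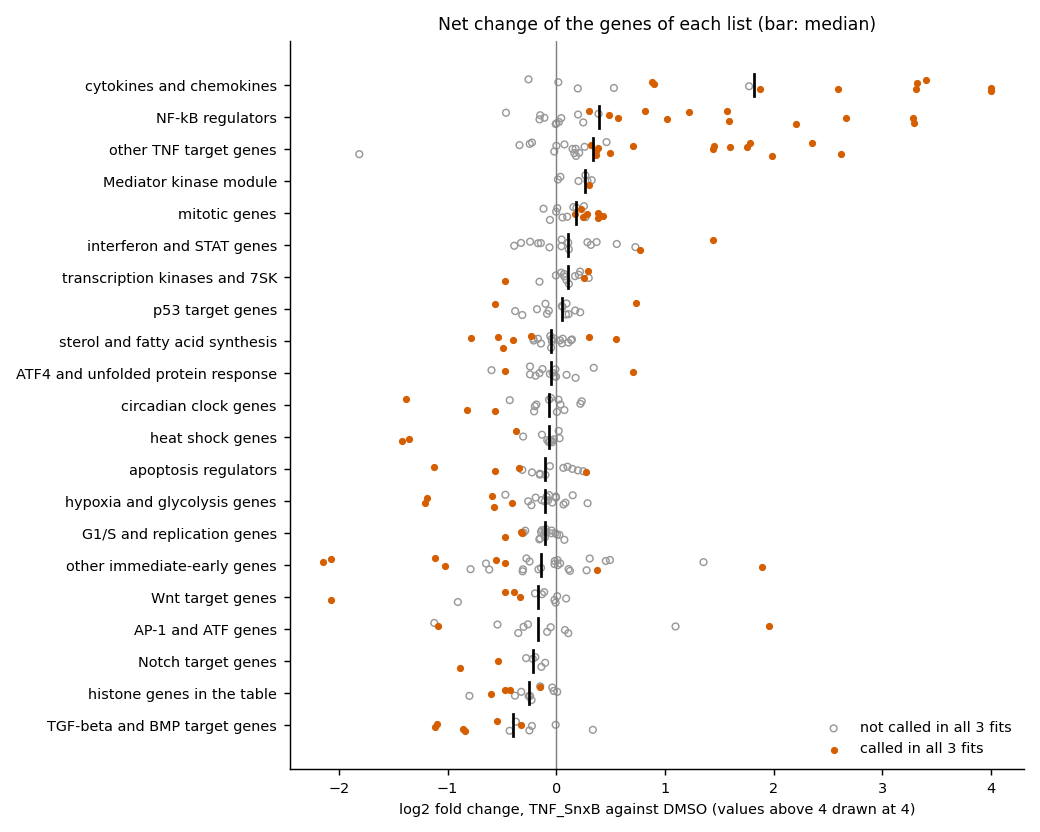
Log2 fold change of TNF_SnxB against DMSO (x axis, values above 4 drawn at 4) for the tested members of 21 gene lists (y axis), with filled points for genes called in all 3 fits, open circles for the others and a bar for the median. Medians run from 1.8 in cytokines and chemokines to -0.40 in TGF-beta and BMP target genes.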

How the data were processed

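Bulk RNA sequencing of HEK293 cells gave 12 libraries, 3 in each of 4 groups. The deposited values are raw read counts per gene, made by the authors with STAR 2.4, SAMtools 1.2 and featureCounts of Subread 1.4.6 on hg38/GRCh38, per the submitters' processing notes. The sources used here do not give the annotation or the strand setting, so reads of overlapping and antisense genes cannot be told apart.

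From the counts, genes were filtered with filterByExpr, which kept 14822 of 56634 genes (25096 had 0 counts throughout) and dropped no more than 0.181% of any library's counts. TMM factors, glmQLFit and glmQLFTest of edgeR 4.0.16 (R 4.3.3) were fitted on all 12 libraries with group means, two-sided, with Benjamini-Hochberg adjustment over all tested genes. Every adjusted p in the text comes from this test, called below 0.05, SE and 95% intervals are Wald values, and log2 changes are group differences. GC content and transcript length (GENCODE v29, GRCh38) were matched for 13438 genes (90.7%) and corrected by loess offsets per library (span 0.3). The code was tested on simulated data. Library totals ran from 8705277 to 50943310, so that 3 counts equal 0.0595 to 0.342 CPM, and the biological coefficient of variation was 3.49% with all libraries and 1.88% after the correction. RefSeq promoter windows were matched by symbol.

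A few items are not reported here. The members and gene lists were chosen with earlier results of these data known. Named were the 10 largest rises and falls called in all 3 fits with at least 1 CPM and no overlap, up to 10 opposing and adding genes by their smaller single change, 6 TNF-led and SnxB-led genes each way, interactions called in all 3 fits and up to 4 genes per list. The remaining opposing and adding genes, the countered led genes and those in the closing observations were named after their values were seen. Alternatives were DESeq2 1.42.0 (test or size factors), no low-count filter, a block for the replicate number, a change of at least 1.5-fold, fewer groups and each library left out.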

Additional observations from a re-analysis of the deposited data

Results flagged for a closer look

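The effect of TNFα was called as different between cells with and without Senexin B in 15 named genes (edgeR interaction, adjusted p under 0.05 with all libraries). Over all tested genes 2.5% were called. The contrast sets TNF_SnxB against SnxB beside TNF against DMSO. Values are differences on the log2 scale, negative where the effect of TNFα was smaller or more negative with the inhibitor. Of the 15, 7 were also called after the GC content and length correction. All 4 tested genes called in all 3 fits were named by rule for that, so their place among the 15 is no independent check.

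Called in all 3 fits were NFKBIA at -0.818 (-0.770 corrected, -0.700 with library 1), SDC4 at -0.609 (-0.599 and -0.708), JUN at -0.378 (-0.254 and -0.271) and TIFA at 0.651 (0.497 and 0.588). CITED2 at -0.397, PMAIP1 at 0.345 and KLF9 at 0.386 were called with all libraries and after the correction, and not with library 1 alone, where they were at -0.303, 0.158 and 0.315.

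The others were called with all libraries only. IER3 was at -0.659, JUND at -0.439, H2AFX at -0.386 and ID3 at -0.311. TBCA was at 0.225, IDI1 at 0.263, GTF2A1 at 0.32 and CENPE at 0.36. With library 1 alone JUND was at -0.195 (adjusted p = 0.591) and IER3 at -0.577 (adjusted p = 0.137). With 3 libraries a group, no gap test for outlying values of single genes was run.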

How the results depend on the processing

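Of the alternatives on named genes 2601 values kept their side of the threshold, 55 lost the call and 13 gained it. Values called in the main fit or the alternative kept their direction. Some values called in neither changed sign, such as those of CDK8, which ran from -0.0735 to 0.0776. Counts that moved by over 1.5 times are given here. After the GC content and length correction there were 891 genes higher, 49 opposing, 18 opposing with no net call, 59 adding, 22 beyond both agents, 214 TNF-led, 296 SnxB-led and 46 interactions. TNF_SnxB library 1 alone gave 341 higher, 347 lower, 51 opposing, 33 opposing with no net call, 130 adding and 17 interactions. A fold of at least 1.5 left 112 higher, 156 lower, 129 in all 3 fits, 5 opposing, 3 opposing with no net call, 0 adding, 0 beyond both agents, 58 TNF-led, 35 SnxB-led and 24 interactions. Only the groups compared gave 604 higher and 621 lower, DESeq2 gave 273 in all 3 fits, and no low-count filter gave 711 interactions. With 1 library left out, 647 to 2846 were higher and 633 to 2788 lower, 421 to 507 were called in all 3 fits, 16 to 53 were opposing, 3 to 14 opposing with no net call, 16 to 132 adding, 4 to 29 beyond both agents, 90 to 188 TNF-led, 89 to 305 SnxB-led and 3 to 4521 interactions. The highest of these came without TNF_SnxB library 1, except 507 without DMSO library 3. Higher and lower calls moved by over 1.5 times without TNF_SnxB library 1 (2846 and 2788), 2 (699 and 701) or 3 (647 and 633) and without DMSO library 1 (809 and 847) or 2 (749 and 760). The cause of these moves was not tested.

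Pairing by replicate number was looked at between TNF_SnxB and DMSO only. Same-numbered deviations from the group means correlated at 0.0813, -0.0382 and 0.0941, and differently numbered ones at -0.153 to 0.0991. Pairing with the other groups was not tested. With the replicate block 1357 genes were higher, 1388 lower, 453 called in all 3 fits, 24 opposing and 736 interactions. The replicate block with the GC content and length correction gave 902 higher, 50 opposing, 21 opposing with no net call, 61 adding, 24 beyond both agents, 211 TNF-led, 307 SnxB-led and 72 interactions. Depth limits CXCL8, CXCL10 and CCL20, which lay under 3 counts in each DMSO library.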

Other observations

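The 196 genes called with both agents in all 3 fits, and with neither agent alone in the fit with all libraries, were described above by their medians. Some of them had a single-agent call in another fit. A few of the 196, chosen after their values were seen, are given here. ID1, another member of the ID family of helix-loop-helix inhibitors beside ID2 and ID3, averaged 10.1 CPM in TNF_SnxB and 17.9 CPM in DMSO, at log2 changes of -0.84 in TNF_SnxB, -0.28 in TNF and -0.24 in SnxB. CEBPA, a gene of a differentiation factor, averaged 7.09 CPM in TNF_SnxB and 11.6 CPM in DMSO, with changes of -0.71, -0.202 and -0.22 in the same groups. SOX12, a SOX family factor gene, averaged 32.8 CPM in TNF_SnxB and 50.1 CPM in DMSO. Its net fall of 0.62 stood beside single changes of -0.12 in TNF and -0.05 in SnxB. EGLN3, which encodes an oxygen-sensing prolyl hydroxylase, averaged 12.8 CPM in TNF_SnxB and 19.5 CPM in DMSO and fell by 0.596.

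On the other side, FRMD4B, a scaffold protein gene, averaged 20.3 CPM in TNF_SnxB and 12.1 CPM in DMSO and rose by 0.76, with 0.23 in TNF and 0.00079 in SnxB. BCL10, which encodes a signaling adaptor upstream of NF-kB in lymphocytes, averaged 21.8 CPM in TNF_SnxB and 15.2 CPM in DMSO and rose by 0.51. INO80D, a subunit gene of the INO80 chromatin remodeler, averaged 18.7 CPM in TNF_SnxB and 11.1 CPM in DMSO and rose by 0.76. With TNF_SnxB library 1 alone the last 3 were at 0.70, 0.59 and 0.55. The departure of these net changes from the sum of both single changes was not called in all 3 fits for any of the 7 genes.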
